A study of Homo sapiens with 9 samples.

Results

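The 9 genes examined here are those by which luminal and apocrine breast cells that respond to androgens are usually recognised: FOXA1, GATA3, SPDEF, TRPS1, FKBP5, PIP, APOD, AZGP1 and AGR2. They were taken by gene symbol from a table of 19930 genes, and were chosen with earlier results of these data known. A row was found for 8 of the 9, and PIP, a secreted protein of apocrine cells, is not analysed here. A mean of at least 1 FPKM (fragments mapped to a gene, relative to its transcript length and to library size) over all libraries was required for a test, and 3 of the 8 reached it (FKBP5, AZGP1 and AGR2). The other 5 (FOXA1, GATA3, SPDEF, TRPS1 and APOD) lay under this limit and are described by their values.

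RNA was sequenced from cells labelled as MDA-MB-453, an established human breast cancer cell line, harvested 48 h after transfection with Lipofectamine 2000. The comparison was among 3 groups of 3 libraries: X453_NC, the control siRNA, and X453_1 and X453_2, which the labels give as knockdowns of the long noncoding RNA LINC00673. The groups share the labelled cell line, the transfection reagent and the harvest time. Each has a library without a suffix and libraries r1 and r2, in which order values are given below. The labels do not say that these came from separate cultures, so p-values measure only the spread between libraries, which may be technical. Over the tested genes, libraries of a group correlated with r of 0.994 to 0.996 and those of different groups with 0.955 to 0.990. The level of LINC00673 is not analysed here, so the knockdown itself was not checked.

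Luminal breast cells are shaped by steroid hormones and by a small set of transcription factors. Among these FOXA1 opens chromatin for steroid receptors, GATA3 maintains luminal differentiation, SPDEF drives secretory programs, and TRPS1 is a GATA-type repressor found across breast tumours. FKBP5, a co-chaperone of steroid receptors, is induced by androgens and glucocorticoids, while APOD (a lipid carrier), AZGP1 (a zinc-binding lipid-mobilizing glycoprotein) and PIP are secreted products of apocrine cells, and AGR2 is a protein disulfide isomerase of the endoplasmic reticulum that helps mucins fold. MDA-MB-453 is known as an estrogen receptor-negative line with a luminal and apocrine profile.

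The agents that define the comparisons are shown first, as the antisense strands listed by the study, 5′ to 3′, with the seed (bases 2 to 8 of the strand) in capitals. The number in each library label was taken as the number of the siRNA, which the labels do not state.
LINC00673-siRNA1: aGAAACCUcugauuccacctt
LINC00673-siRNA2: uUAUUAUUugagacagggucu
The bases that pair with the seed were searched in the longest GENCODE transcript of each gene. Those for siRNA1 occurred 2 times in FKBP5 and in no other of the 8 genes, against 22.8% of 11380 tested genes with at least 1 match. Those for siRNA2 occurred 5 times in TRPS1, 2 times in GATA3 and 1 time in FOXA1, against 27.5% of the same genes. AGR2, AZGP1, APOD and SPDEF held neither. A match is a description and not a site of action.

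FOXA1 and TRPS1 were at or near 0, against the known profile of the labelled line. FOXA1 (chr14:38058757-38064325 on GRCh37.p13, the build named in the submitters' processing notes) had 0.01, 0 and 0 FPKM in X453_NC, 0, 0 and 0 in X453_1, and 0, 0 and 0.04 in X453_2, which corresponds to between 0 and 3 fragments per library at the depth estimated for these libraries (23.4 to 27.6 M fragments). For FOXA1, 3 fragments, the limit that a count of 0 allows, would give at most 0.0390 FPKM, a limit for counting error only. TRPS1 had 0.01, 0.01 and 0 FPKM in X453_NC, 0.02, 0 and 0.01 in X453_1, and 0.02, 0.02 and 0.01 in X453_2, or between 0 and 5 fragments. For FOXA1 and TRPS1 the groups overlapped in each comparison, and a difference was not detectable at this depth. In bulk RNA, fewer cells of a type and less RNA per cell cannot be told apart. Whether the sequenced cells match the label was not tested, and the genes are called below by their names and not as an identity of these cells.

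**Figure D1:**
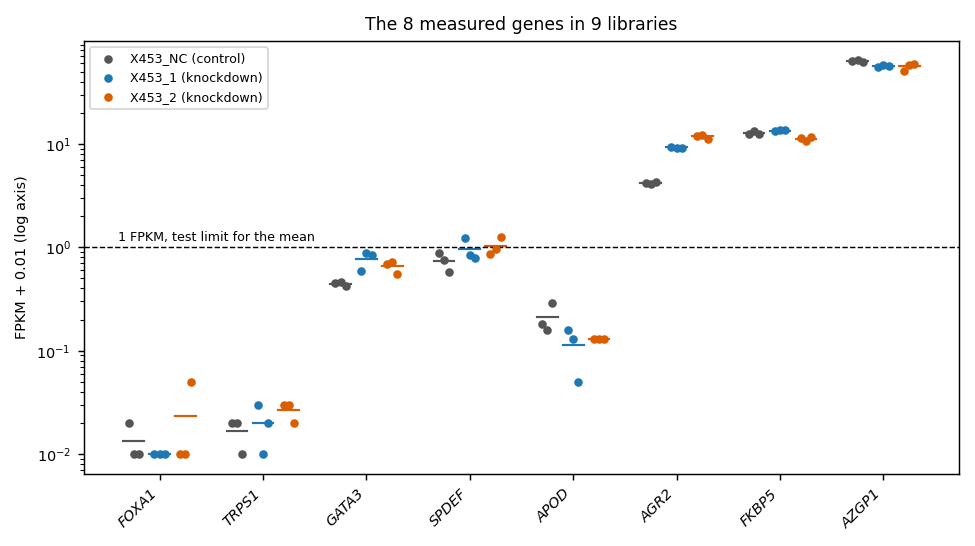
FPKM plus 0.01 on a log axis for the 8 genes with a row, in the 9 libraries. Points are libraries coloured by group, short lines are group means, and the dashed line marks the 1 FPKM that the mean of a gene had to reach for a test. FOXA1 and TRPS1 sit at the bottom, with at most 0.04 FPKM, and AZGP1 at the top, between 51.17 and 64.07 FPKM.

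GATA3 (chr10:8096667-8117164) was low but measurable. It had 0.44, 0.45 and 0.41 FPKM in X453_NC, 0.58, 0.88 and 0.84 in X453_1, and 0.68, 0.71 and 0.54 in X453_2, from 34 to 65 fragments per library. All 6 knockdown libraries lay above all 3 control libraries, while the knockdowns overlapped each other. Groups without overlap, in either direction, were seen for 70.0% of tested genes in X453_1 and 73.0% in X453_2. These shares are to be set beside each separation from the control given below. The mean was 0.433 ± 0.0208 FPKM (SD, n = 3) in X453_NC and 1.77-fold and 1.48-fold that value in X453_1 and X453_2. The exact permutation test of 3 against 3 libraries, two-sided, gave p = 0.1 in each, the smallest it can give. In a limma fit added after the values were seen, with no limit on the level and 0.1 FPKM added before the logarithm, the log2 differences were 0.68 (SE 0.17, adjusted p = 0.0096) and 0.47 (SE 0.17, adjusted p = 0.043). Both met the call described below, as did 28.5% and 34.9% of the 19930 genes in that fit. With 1 FPKM added instead, the GATA3 differences were 0.30 and 0.20, under the fold limit, and division by GAPDH brought the latter to 0.05.

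SPDEF (chr6:34505579-34524110) had 0.87, 0.74 and 0.57 FPKM in X453_NC, 1.21, 0.84 and 0.78 in X453_1, and 0.86, 0.95 and 1.24 in X453_2. The control range overlapped that of each knockdown, and in the added fit the log2 differences were 0.33 (SE 0.21, adjusted p = 0.25 by limma) and 0.44 (SE 0.21, adjusted p = 0.12). APOD (chr3:195295573-195311076) had 0.17, 0.15 and 0.28 FPKM in X453_NC, 0.15, 0.12 and 0.04 in X453_1, and 0.12 in each library of X453_2. These are 1 to 8 fragments per library. The X453_NC and X453_1 libraries overlapped at 0.15, and those of X453_2 all lay below X453_NC. The added fit called APOD in X453_1 only by its unadjusted p (log2 difference -0.58, SE 0.23, adjusted p = 0.075 by limma) and did not call it in X453_2 (-0.42, adjusted p = 0.17).

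Relatives of the near-absent factors were read for comparison, from family lists added after the levels above had been seen. The forkhead A genes other than FOXA1 were abundant: FOXA2 ranged from 36.63 to 42.19 FPKM and FOXA3 from 24.90 to 28.53. Neither was called in either knockdown. Within the GATA family, GATA2 had 1.57 to 2.29 FPKM and GATA6 had 1.74 to 2.58, both above GATA3 in each library, while GATA1, GATA4 and GATA5 stayed at or below 0.09. GATA2 and GATA6 were likewise not called. With respect to the other steroid receptors, ESR1, the estrogen receptor, was at 0 to 0.02 FPKM, and NR3C1, the glucocorticoid receptor that also induces FKBP5, had 0.06, 0.12 and 0.10 FPKM in X453_NC, 0.13, 0.14 and 0.14 in X453_1, and 0.17, 0.12 and 0.10 in X453_2. The X453_1 libraries lay above the control libraries for NR3C1, and X453_2 overlapped them.

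**Figure D2:**
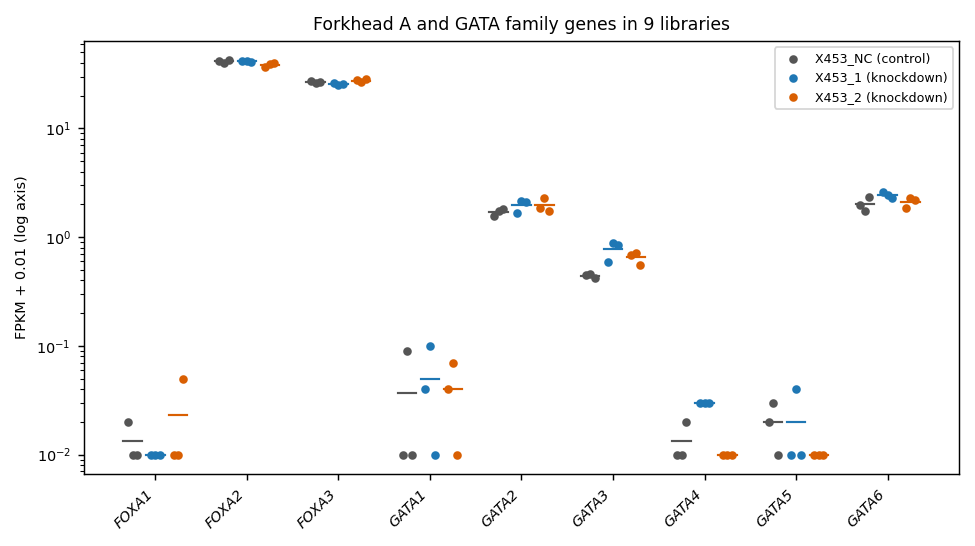
FPKM plus 0.01 on a log axis for the forkhead A and GATA family genes in the 9 libraries. Points are libraries coloured by group and short lines are group means. FOXA2 and FOXA3 stand between 24.90 and 42.19 FPKM in every library where FOXA1 is at most 0.04, and GATA2 and GATA6 stand above GATA3.

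The 3 tested genes were compared by limma on log2(FPKM + 1) over all 12884 genes whose mean reached the limit of 1 FPKM, a scale that understates the change of low genes. A gene was called where the fold change was at least 1.3 (0.38 on the log2 scale) and the unadjusted p at most 0.05, the criteria of the study, and the Benjamini-Hochberg adjusted p over all tested genes is given beside it. By this rule 1 of the 3, AGR2, was called against X453_NC in each knockdown, and it was higher. The same rule called 26.7% of all tested genes in X453_1 (11.1% higher and 15.6% lower) and 34.0% in X453_2 (11.0% higher and 23.1% lower). The median log2 difference over all tested genes was 0.0032 in X453_1 and -0.095 in X453_2. Other scalings moved this balance. Division by GAPDH left 925 genes higher and 2897 lower in X453_1 and 427 higher and 7567 lower in X453_2, against 1432 and 2004, and 1411 and 2974, without it. Scaling by the median ratio of the libraries gave 1975 higher and 2246 lower in X453_2, and 524 higher and 321 lower between the knockdowns, against 282 and 702.

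FKBP5 (chr6:35541362-35696360) had 12.46, 13.45 and 12.48 FPKM in X453_NC, 13.16, 13.51 and 13.56 in X453_1, and 11.34, 10.54 and 11.61 in X453_2. X453_1 overlapped the control, and every X453_2 library lay below every library of the other groups. The log2 difference from X453_NC was 0.06 (SE 0.045, adjusted p = 0.24 by limma) in X453_1 and -0.18 (SE 0.045, adjusted p = 0.0046) in X453_2. Both are under the fold limit, and an adjusted p alone of at most 0.05 was reached by 70.8% of tested genes in X453_2. The knockdowns differed from each other by -0.25 (adjusted p = 0.0021), and 44.0% of tested genes reached an adjusted p of at most 0.05 between them. Scaling by the median ratio brings the median of all genes in X453_2 to -0.0041, and with it the difference of X453_2 from the control was -0.08 with an unadjusted p of 0.086. FKBP5 had 1928 to 2529 fragments per library, where NR3C1 had 12 to 30.

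FKBP4, the paralog of FKBP5 in steroid receptor complexes, had 37.40, 35.51 and 36.58 FPKM in X453_NC, 59.61, 59.91 and 54.96 in X453_1, and 55.16, 56.92 and 60.08 in X453_2. Each knockdown library lay above each control library, and the log2 differences were 0.66 (SE 0.044, adjusted p = 1.3e-06 by limma) and 0.64 (SE 0.044, adjusted p = 9.0e-07). Of the 15 FKBP family genes, 14 were tested, 1 was called higher and 2 lower in X453_1, and 2 were higher and 4 lower in X453_2. In X453_2 division by GAPDH gave 0 higher and 10 lower. Correction for GC content gave 1 higher and 1 lower in X453_1, and 2 higher and 2 lower in X453_2. FKBP2, a prolyl isomerase of the endoplasmic reticulum, fell from 57.78, 52.53 and 56.97 FPKM in X453_NC to 16.69, 11.54 and 11.15 in X453_1 and 12.80, 21.38 and 17.54 in X453_2. FKBP8, an anti-apoptotic member of the mitochondrial outer membrane, fell by 0.67 and 0.51 on the log2 scale.

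Among the secreted products, AZGP1 (chr7:99564350-99573735) was the most abundant of the 8 genes. It had 63.86, 64.07 and 61.54 FPKM in X453_NC, 55.93, 58.50 and 56.14 in X453_1, and 51.17, 58.49 and 59.32 in X453_2. Each knockdown library was below each control library, a separation as common among all tested genes as given above. The log2 differences were -0.15 (SE 0.052, adjusted p = 0.028 by limma) and -0.17 (SE 0.052, adjusted p = 0.016), under the fold limit in both. The knockdowns differed by -0.016 (SE 0.052, adjusted p = 0.82). After scaling by the median ratio the X453_2 difference was -0.06 with an unadjusted p of 0.26, and that between the knockdowns turned to 0.09.

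AGR2 (chr7:16832264-16844738) rose in both knockdowns. It had 4.17, 4.08 and 4.24 FPKM in X453_NC, 9.42, 9.16 and 9.20 in X453_1, and 11.95, 12.29 and 11.13 in X453_2, from 93 to 274 fragments per library. No library of a group reached into the range of another, as held for 53.7% of tested genes between the knockdowns. Means were 4.16 ± 0.0802, 9.26 ± 0.14 and 11.79 ± 0.596 FPKM (SD, n = 3), so the knockdowns had 2.22-fold and 2.83-fold the control level. On the log2 scale the rise was 0.99 (SE 0.043, adjusted p = 8.4e-08 by limma) and 1.31 (SE 0.043, adjusted p = 7.8e-09), and it was greater in X453_2 than in X453_1 by 0.32 (adjusted p = 0.00042), which is under the fold limit. No gene of the 3 was called between the knockdowns, where 7.64% of tested genes were. Leaving out any 1 library kept the rise between 0.98 and 1.0 in X453_1 and between 1.28 and 1.35 in X453_2. Divided by GAPDH, itself higher in X453_2 by 0.43, AGR2 remained higher by 0.90 and 0.93, and the difference between the knockdowns was 0.036 with an unadjusted p of 0.51. Scaled by the median ratio instead, AGR2 passed the fold limit between the knockdowns and was called there, as were 845 of 12884 tested genes.

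**Figure D3:**
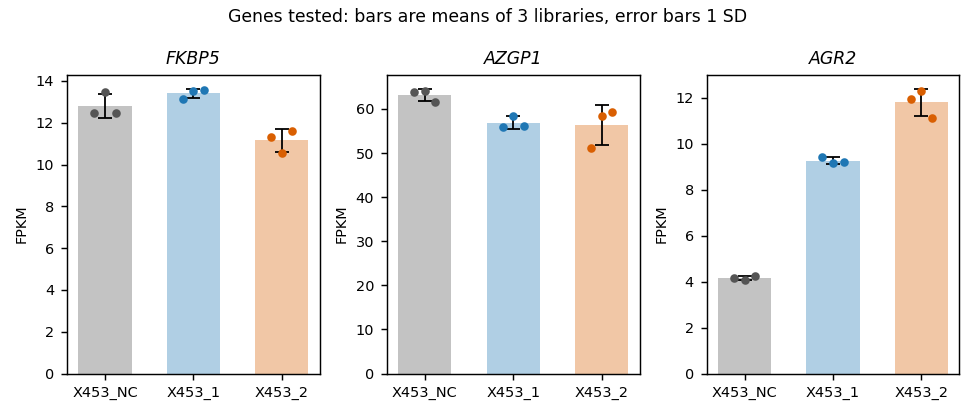
FPKM of the 3 tested genes, FKBP5, AZGP1 and AGR2, in each group. Bars are means of 3 libraries, error bars 1 SD and points libraries, and each axis starts at 0. AGR2 separates the 3 groups, with control libraries between 4.08 and 4.24 FPKM and knockdown libraries between 9.16 and 12.29, while FKBP5 and AZGP1 differ by much less.

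The paralog AGR3 was scarce, with 0.27, 0.18 and 0.33 FPKM in X453_NC, 0.47, 0.74 and 0.54 in X453_1, and 0.49, 0.54 and 0.32 in X453_2, from 3 to 12 fragments per library. Its X453_1 libraries lay above the control and its X453_2 libraries overlapped it. Of the 13 AGR and protein disulfide isomerase family genes, a list also added after the levels were seen, 10 were tested, and 3 were called higher in each knockdown and none lower. Besides AGR2 these were TXNDC5 (54.42, 54.11 and 55.38 FPKM in X453_NC, 76.29, 74.21 and 73.88 in X453_1, and 88.40, 84.61 and 84.04 in X453_2) and PDIA4 (70.10, 70.74 and 73.29, then 97.12, 95.33 and 93.56, then 108.51, 111.57 and 108.97), both thiol oxidoreductases of the endoplasmic reticulum. After division by GAPDH, 1 of the 10 was higher in X453_1, and 1 was higher and 2 lower in X453_2.

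In the control libraries the order of the levels was AZGP1, FKBP5, AGR2, SPDEF, GATA3 and APOD, with no overlap between neighbours, and then TRPS1 and FOXA1, whose libraries overlapped. By their mean in X453_NC these genes stood at the percentiles 94.8, 73.9, 53.1, 31.9, 27.8, 22.7, 6.0 and 4.7 of the 19930 genes. In X453_2 the AGR2 libraries (11.13 to 12.29 FPKM) overlapped those of FKBP5 (10.54 to 11.61), which was not the case in the other groups.

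The sequence around the transcription start was read for the tested genes from RefSeq (GRCh38.p14), as the 250 bases before and 50 after it, in the 4 promoters listed for them. Letters searched on both strands were AGATAA for GATA factors (in 10.3% of 35116 promoters), TGTTTAC for forkhead factors (3.42%), and AGAACA, the core hexamer bound by steroid receptors (14.8%). AGR2 held AGATAA at position -119 and none of the others, 1 of the 2 promoters of FKBP5 held AGAACA at its start, and AZGP1 held none. The 30 bases around each match are given 5′ to 3′ on the gene's strand, the match in capitals, since AGR2 is the gene that rose and FKBP5 the classical androgen-induced one.
AGR2, chr7:16805101-16805130, minus strand: ttaacccagggaAGATAAtcacttggggaa
FKBP5, chr6:35728566-35728595, minus strand: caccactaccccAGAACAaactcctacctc
These letters are a description of the windows and not of binding.

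Genes whose pattern over the 9 libraries was nearest to each of the 8 were sought among the 8256 known genes whose mean reached 5 FPKM (predicted genes without a symbol were left out), by Euclidean distance of log2(FPKM + 1) after subtraction of the control mean. AGR2 was nearest to EMP1 and ZFP36L1 (both at a distance of 0.21), whose means went from 70.1 to 148 and 174 FPKM and from 108 to 211 and 255 FPKM. FKBP5 was nearest to DHX57 (0.069) and RUFY1 (0.074), and AZGP1 to SLC39A7 (0.10). GATA3 was nearest to UBE2E2 (0.12) and QPCT (0.15), SPDEF to PIGF (0.21) and COA3 (0.23), and APOD to PLCXD1 (0.11) and THOC3 (0.12). For FOXA1 (FDFT1 and ITPK1) and TRPS1 (C1orf52 and MRPL49) the measure returns genes that hardly vary, since both are near 0 throughout.

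The wider pathway was described with 5 lists of genes, compiled with earlier results of these data known. Their counts are a description, and the lists were not tested as sets. In the lists 68 genes were tested one by one. Of these, 21 were called higher and 7 lower in X453_1, and 23 higher and 10 lower in X453_2, with median log2 differences of 0.16 and 0.042 beside 0.0032 and -0.095 over all tested genes. In X453_2 scaling by the median ratio gave 25 higher and 7 lower, and correction for GC content 24 higher and 11 lower. After division by GAPDH the calls were 19 higher and 13 lower in X453_1, and 9 higher and 32 lower in X453_2. That division moves the median of all genes to -0.10 in X453_1 and -0.46 in X453_2. It left 925 of all 12884 tested genes higher and 2897 lower in X453_1, and 427 higher and 7567 lower in X453_2. The direction of the lists in X453_2 thus depends on division by GAPDH, which moved all genes the same way. Without that division, 11.1% of all tested genes were called higher and 15.6% lower in X453_1. In X453_2 these shares were 11.0% and 23.1%, to be set beside each list below.

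Among the androgen response genes, 22 of 30 were tested, 7 were called higher and none lower in X453_1, and 9 were higher and 3 lower in X453_2. Division by GAPDH gave 6 higher and 2 lower in X453_1 and 3 higher and 8 lower in X453_2, and scaling by the median ratio gave 10 higher and 1 lower in X453_2. NDRG1, a stress-responsive gene also induced by hypoxia, had 100.56, 99.04 and 99.75 FPKM in X453_NC, 234.57, 226.96 and 223.55 in X453_1, and 347.08, 347.39 and 353.52 in X453_2. SGK1, a kinase induced by glucocorticoids, had 0.81, 0.87 and 0.67 FPKM in X453_NC, 1.63, 1.92 and 1.95 in X453_1, and 1.91, 2.21 and 2.10 in X453_2. PER1, a clock gene, rose by 0.51 and 0.81 and PMEPA1, an inhibitor of TGF-beta signalling, by 0.64 in both. These named genes are also induced by other signals. KLK3, the prostate-specific antigen and a canonical androgen-induced gene, had 4.63, 4.94 and 4.76 FPKM in X453_NC, 4.0, 3.65 and 3.34 in X453_1, and 3.57, 3.29 and 4.27 in X453_2. Its knockdown libraries all lay below the control, a separation as common among all tested genes as given above. The differences were -0.31 (adjusted p = 0.0063 by limma) and -0.30 (adjusted p = 0.0068), both under the fold limit. Other androgen-induced genes of prostate cells were higher in every knockdown library than in the control. TMPRSS2, a serine protease, went from 22.45 to 24.24 FPKM in X453_NC to 28.33 to 28.73 in X453_1 and 25.79 to 26.83 in X453_2, under the fold limit at 0.28 and 0.16. SLC45A3, a membrane transporter, had 19.48, 17.17 and 18.71 FPKM in X453_NC, 23.29, 23.39 and 23.86 in X453_1, and 24.18, 25.91 and 25.98 in X453_2, and was called in X453_2 (0.44) but not in X453_1 (0.34). KLK3, TMPRSS2 and SLC45A3 are outside the naming rule and were chosen after their values were seen.

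**Figure D4:**
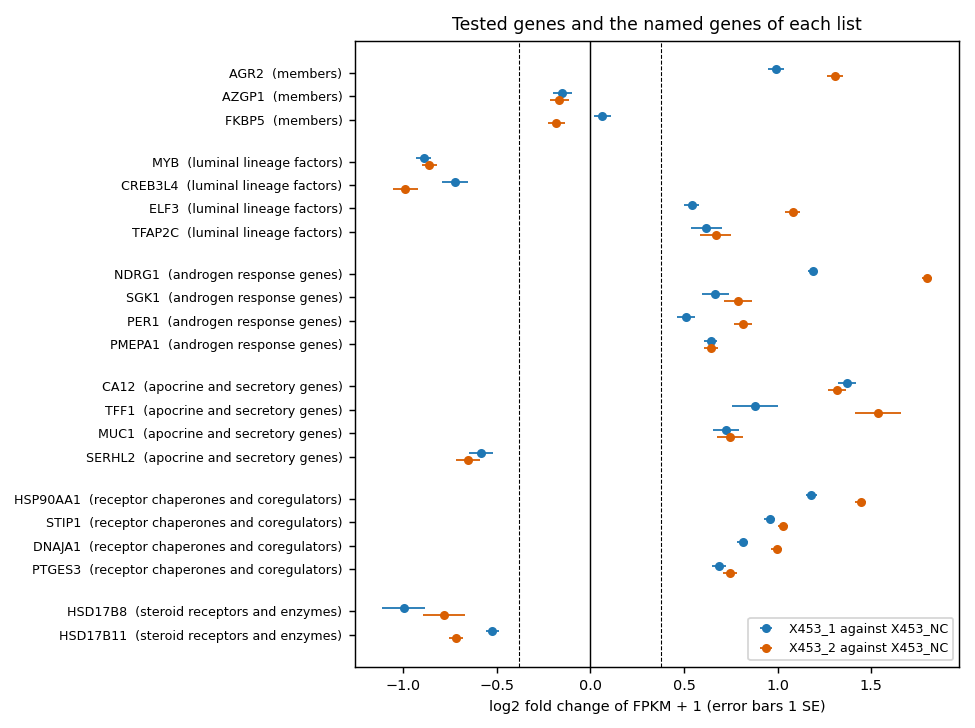
Log2 fold change of FPKM + 1 against X453_NC (error bars 1 SE from limma) for the tested genes and for the up to 4 genes named by rule from each list, which were chosen for being called in both comparisons. Dashed lines mark the 1.3-fold limit. AGR2 stands at 0.99 and 1.31, AZGP1 and FKBP5 inside the limit, and NDRG1 in X453_2 farthest to the right at 1.80. The comparisons share the control libraries.

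Apocrine and secretory genes were mostly low. Exceptions outside the naming rule included TFF3, at 110.45 to 154.85 FPKM, and FASN, at 26.37 to 36.50, neither called in either knockdown. Of 28 listed genes, 5 had no row, 14 lay under 1 FPKM and 9 were tested, of which 4 were higher and 1 lower in X453_1, and 5 higher and 1 lower in X453_2 (after division by GAPDH, 4 higher and 2 lower in X453_1 and 2 higher and 3 lower in X453_2). Mammary secretoglobin and mucin-like genes were near absent: MUCL1 and SCGB2A1 were at 0 in 8 of 9 libraries each. CA12, a membrane carbonic anhydrase, had 1.19, 1.31 and 1.21 FPKM in X453_NC, 4.62, 4.73 and 5.01 in X453_1, and 4.58, 4.62 and 4.51 in X453_2. TFF1, a secreted trefoil peptide, had 1.76, 2.46 and 2.14 FPKM in X453_NC, 4.56, 5.40 and 4.24 in X453_1, and 9.71, 7.68 and 6.88 in X453_2. No control library of either gene reached the knockdown range. MUC1, an epithelial membrane mucin, rose by 0.72 and 0.75, and SERHL2, a hydrolase-like gene, fell by 0.58 and 0.65.

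Of the luminal lineage factors, 11 of 18 were tested, 4 were higher and 4 lower in X453_1, and 3 higher and 4 lower in X453_2 (1 higher and 4 lower there after division by GAPDH). The epithelial factor ELF3 had 76.16, 71.07 and 73.01 FPKM in X453_NC, 109.85, 105.51 and 106.55 in X453_1, and 148.14, 158.26 and 162.91 in X453_2. TFAP2C, a factor of the luminal lineage, rose by 0.62 and 0.67. MYB, a factor of estrogen receptor-positive tumours, fell from 10.53, 10.63 and 10.17 FPKM to 5.09, 5.38 and 5.05 in X453_1 and 5.51, 5.23 and 5.19 in X453_2. CREB3L4, a membrane-bound factor of the endoplasmic reticulum that androgens induce in prostate cells, fell by 0.72 and 0.99.

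Receptor chaperones and coregulators, all 19 tested, had 6 genes called higher and none lower in each knockdown (after division by GAPDH, 6 higher and 1 lower in X453_1 and 3 higher and 10 lower in X453_2). The named 4 were chaperones or co-chaperones. HSP90AA1, the stress-inducible cytosolic HSP90 that holds steroid receptors ready for hormone, had 353.18, 373.15 and 357.10 FPKM in X453_NC, 824.58, 812.91 and 818.55 in X453_1, and 1015.50, 956.08 and 978.61 in X453_2. STIP1, which links HSP70 to HSP90, rose by 0.96 and 1.03, the HSP40 protein DNAJA1 by 0.81 and 0.99, and the HSP90 co-chaperone PTGES3 by 0.68 and 0.74. Outside the naming rule, HSP90AB1 (872.61 to 948.68 FPKM) differed by -0.084 and -0.0082, and BAG1 by -0.34 and -0.26. Neither was called, and the median log2 difference of the 19 genes was 0.21 and -0.0082. Among steroid receptors and enzymes 7 of 10 were tested, and 2 were lower and none higher in each knockdown (4 and 7 lower, and none higher, after division by GAPDH). The 2 were the hydroxysteroid dehydrogenases HSD17B8, which fell by 1.0 and 0.78, and HSD17B11, which fell by 0.52 and 0.72.

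Markers of cell types were read for the whole lists. The 9 luminal epithelial markers were all tested and summed to 7449 to 8103 FPKM in X453_NC, 6333 to 6991 in X453_1 and 6543 to 7227 in X453_2. KRT8 alone gave 3011 to 3773 FPKM, and of the 9 genes 1 was called higher and 4 lower in X453_1 and 1 higher and 3 lower in X453_2, with CLDN7, a tight junction protein, at log2 differences of -1.0 and -1.02. After correction for GC content the marker counts were 2 higher and 1 lower, and 1 higher and 2 lower, and after division by GAPDH they were 0 higher and 4 lower, and 1 higher and 6 lower. Basal and myoepithelial markers summed to 11.11 to 13.03, 9.87 to 10.44 and 7.86 to 8.48 FPKM, mostly KRT17, and 7 of 9 lay under 1 FPKM. Stromal markers summed to 9.54 to 10.15, 12.50 to 12.95 and 11.31 to 12.72, nearly all from LUM (5.33 to 7.11) and COL1A1 (3.49 to 7.08), with COL1A2, COL3A1 and DCN at or below 0.12. COL1A1, a fibrillar collagen chain, was called higher in both knockdowns (0.44 and 0.62), and no stromal marker was called higher after division by GAPDH. Immune markers summed to 32.83 to 34.67, 45.90 to 50.03 and 55.49 to 59.34, nearly all CD68, a lysosomal protein of macrophages and other cells, while PTPRC, the leukocyte antigen, was at or below 0.07. The 3 endothelial markers summed to at most 1.01 FPKM. Genes of other epithelial lineages, some given at the end, summed to 188.10 to 190.20 FPKM in X453_NC. In X453_1 they summed to 153.90 to 160.40 and in X453_2 to 133.71 to 145.08. Whether the luminal list marks breast cells in particular was not tested, nor was the part of any marker in the results above.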

How the data were processed

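The deposited table gives FPKM per gene and library, which the authors computed from BGISEQ-500 libraries and rounded to 2 decimals. The submitters' processing notes name Bowtie2 version 2 and GRCh37.p13, and the counting tool is not given in the sources used here. Columns of log2 ratios, p-values and q-values between groups were not used. The table holds 19930 genes, and 4 lines without values were left out. A second, equal set of FPKM columns was not used. The sizes of the steps in the FPKM of 131 to 146 short genes per library gave an estimated depth of 23.4 to 27.6 M fragments, with a mean distance from whole fragments of 0.053 to 0.079. No count model was fitted.

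Log2(FPKM + 1) of the 12884 genes whose mean reached 1 FPKM was fitted in limma 3.58.1 (R 4.3.3, lmFit and eBayes with trend), with all 9 libraries in 1 fit and the condition as the only term. The step was tested on simulated data. Tables were handled in Python 3.11.15 with pandas 2.3.3. The genes and lists were chosen with earlier results of these data known, and the family lists and the fit with 0.1 FPKM and no limit were added after values were seen. All 9 genes are described. From each list, up to 4 genes called in both knockdowns in the same direction, with the largest mean log2 fold change, are named, together with NR3C1, AGR3 and FKBP4. Some genes that these rules name are not reported here. Alternatives covered the value added, the limit on the level, fold limits, scaling, GC content (11380 genes), the replicate block and each library left out.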

Additional observations from a re-analysis of the deposited data

Results flagged for a closer look

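For 12 of 28 named genes the effects of the knockdowns against the shared control differed, by the limma contrast of X453_2 against X453_1 with an adjusted p of at most 0.05, which 44.0% of all tested genes also reached. Among the genes of the report FKBP5 differed by -0.25 (X453_2 minus X453_1, log2) and AGR2 by 0.32. In the lists the difference was -0.26 for CREB3L4, 0.54 for ELF3, 0.61 for NDRG1, 0.30 for PER1, 0.66 for TFF1, 0.26 for HSP90AA1, 0.18 for DNAJA1 and -0.19 for HSD17B11. For the markers it was -0.32 for KRT17 and 0.25 for CD68. The median difference over all tested genes was -0.081. Of these genes ELF3, NDRG1 and TFF1 also passed the fold limit of 1.3.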

How the results depend on the processing

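Only 3 of the 8 genes were tested, so every count over them is small. Without the limit on the level and with 0.1 FPKM added, a setting chosen after seeing the data, 3 of 8 genes were called in X453_1 and 2 in X453_2. The same fit called 28.5% and 34.9% of the 19930 genes. The 3 include APOD, with 1 to 8 fragments per library and an adjusted p of 0.075 by limma. A fold limit of 2 left 0 of the 3 in X453_1, where AGR2 is just under it on the log2(FPKM + 1) scale. Division by GAPDH gave 3 of 3 in X453_2 (AGR2 higher, FKBP5 and AZGP1 lower), where it called 7994 of all 12884 tested genes. Between the knockdowns it gave 1, FKBP5, beside 5344 of the 12884. The median ratio also gave 1 there, AGR2, beside 845 of the 12884. Over the 68 list genes, 28 calls in X453_1 became 16 at a fold limit of 1.5 and 3 at a limit of 2, and 33 in X453_2 became 6 at a limit of 2. No tested call changed sign under the alternatives run. The numbers of the libraries did not pair them (correlations of same-numbered deviations from -0.24 to 0.10), and with the replicate block 1, 1 and 0 of the genes were called, as without it. Correction for GC content gave the same 3 counts. Leaving out each library in turn gave 1, 1 and 0 as well. Over single named genes, 1972 values were counted as the same, 81 lost the call and 8 gained it. For the 5 untested genes 19 differences moved by 1 SD or more, and smaller moves were counted as the same. For tested genes the same means the same side of the threshold, where an uncalled difference could change sign. KRT17 in X453_1 (-0.39) fell under the fold limit, at -0.34 to -0.37, when X453_1 r1, X453_1 r2, X453_NC r1 or the X453_NC library without a suffix was left out.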

Other observations

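Genes of other epithelial lineages were read after the levels above had been seen, and are given as values. HNF4A, a nuclear receptor of liver, kidney and gut epithelium, had 52.85, 52.87 and 53.32 FPKM in X453_NC, 53.53, 54.39 and 53.03 in X453_1, and 42.67, 42.33 and 46.22 in X453_2. VIL1, the microvillus protein villin, had 119.37, 119.05 and 119.86 FPKM in X453_NC, 90.46, 89.92 and 85.64 in X453_1, and 80.67, 89.25 and 88.03 in X453_2. CDX2, an intestinal homeobox factor, had 8.63, 7.58 and 8.10 FPKM in X453_NC, 7.41, 6.89 and 6.18 in X453_1, and 3.58, 3.57 and 3.76 in X453_2. CDH17, an intestinal cadherin, was at 3.42 to 5.5. Each of these 4 genes was above FOXA1, TRPS1 and GATA3 in every library. What this means for the label of the cells was not tested.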
